A study of Mus musculus with 16 samples.

Results

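Of the 13015 genes listed for these libraries, 9 were examined here as families. The study names 4 of them as RNAs that accumulate in cell protrusions: Cyb5r3, Kank2, Pkp4 and Ddr2. The other 5, Cyb5r1, Cyb5r4, Kank1, Ctnnd1 and Ddr1, encode paralogs, that is related proteins of the same families. All 9 were listed and all 9 entered every test, which gave 5 pairs of a localized RNA with a paralog. The 9 genes were picked by name and with earlier results of these data known, and the study had classed the 4 localized RNAs as protrusion-enriched and as APC-dependent from these same libraries. Their high protrusion levels and their loss with the siRNA against Apc are therefore no independent evidence, and the tests below describe how large these differences were. The study also drew on evidence that was not examined here. It reports RNA counting without amplification for selected RNAs, in situ hybridization, and earlier work that had identified Pkp4, Ddr2 and Kank2 as dependent on APC.

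The cells were NIH/3T3, an immortalized mouse fibroblast line. They carried either the control siRNA (siControl) or an siRNA against Apc (siAPC), and all were serum-starved, plated on porous filters, drawn downward by lysophosphatidic acid (LPA) and fixed. Protrusions were collected from the lower filter face (Ps, several filters pooled) and cell bodies from the upper face (CB, a single filter). Each siRNA thus gave a CB and a Ps group, and each of the 4 groups held 4 independent replicates, 16 libraries in all. These are fractions of a whole population, so fewer or smaller protrusions and a different RNA content per protrusion cannot be told apart.

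Messenger RNAs can be transported along microtubules and held at the cell periphery, where the encoded protein is then made. APC, the adenomatous polyposis coli tumor suppressor, binds microtubule ends and RNAs, and the study asked which protrusion RNAs depend on it. Paralogs share an ancestral coding sequence but have their own untranslated regions, where localization signals of mRNAs commonly lie.

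The 9 genes belong to 4 families. CYB5R3 is the NADH-cytochrome b5 reductase of the endoplasmic reticulum and mitochondrial outer membrane. CYB5R1 is a membrane-anchored relative, and CYB5R4 joins a cytochrome b5-like domain to a reductase domain. KANK2 and KANK1 bind talin at the rim of focal adhesions and connect it to cortical microtubule capture complexes. PKP4 (plakophilin 4, also p0071) and CTNND1 (p120-catenin) are armadillo-repeat proteins of cell junctions, and p120-catenin binds the cytoplasmic tail of cadherins. DDR2 and DDR1 are receptor tyrosine kinases whose ligands are collagens.

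Gene models were read from GENCODE release M21 on GRCm38, the assembly also called mm10. For each gene the coding transcript with the longest coding sequence stood for the gene. Over the aligned coding bases the identity was 67.5% for Cyb5r3 with Cyb5r1, 66.9% for Cyb5r3 with Cyb5r4, 69.8% for Kank2 with Kank1, 62.1% for Pkp4 with Ctnnd1 and 66.2% for Ddr2 with Ddr1. The longest identical coding stretches were 18, 10, 14, 17 and 20 bases in the same order. No stretch of 50 exonic bases was shared between any members. The windows below show how far Kank2, Pkp4 and Ddr2 resemble their paralogs at the closest point. They run 5′ to 3′ on the coding strand, and capitals mark the longest identical stretch.
Kank2: ttcttaagTACGTGGATGACATtgagaagg
Kank1: tcgtcaaaTACGTGGATGACATacaaaagg
Pkp4: tgatagTTCCACATTCTGGTTGGaataact
Ctnnd1: ttatcaTTCCACATTCTGGTTGGgagagag
Ddr2: ggctcAAGGACCCAAACATCATCCGtctct
Ddr1: ggctgAAGGACCCAAACATCATCCGgctcc

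All windows are coding sequence. The Kank2 window lies in exon 3 at chr9:21795555-21795584 (minus strand) and the Kank1 window in exon 5 at chr19:25409182-25409211 (plus strand). The Pkp4 window is in exon 12 at chr2:59334829-59334858 (plus strand) and the Ctnnd1 window in exon 8 at chr2:84615161-84615190 (minus strand). The Ddr2 window is in exon 15 at chr1:169985001-169985030 and the Ddr1 window in exon 16 at chr17:35684249-35684278, both on the minus strand.

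The 3′ untranslated regions (3′ UTRs) differed widely in length. That of Ddr2 was 5548 bases, longer than in 97.7% of the listed coding genes, against 811 bases in Ddr1. Cyb5r3 had 1484 bases against 661 in Cyb5r1 and 892 in Cyb5r4, and Kank2 had 2167 against 913 in Kank1. The order was turned in the remaining family, with 757 bases in Pkp4 and 2821 in Ctnnd1. The purine share of the 3′ UTR was 53.6% in Pkp4, above that of 92.5% of listed coding genes, and 43.4% in Ctnnd1, above that of 7.8%. In the other localized RNAs it was 51.9% (Cyb5r3), 50.2% (Kank2) and 50.9% (Ddr2), and in the other paralogs 50.5% (Cyb5r1), 48.4% (Cyb5r4), 48.2% (Kank1) and 47.0% (Ddr1). In each of the 5 pairs the localized RNA had the higher purine share, and the widest gap was that of Pkp4 and Ctnnd1. These shares are a description of the annotated transcripts and were not tested.

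Some reads of these genes may be shared with other loci. Of the exonic bases of Ctnnd1, 61.2% also belong to Gm28635, an annotated gene on the same strand that is not in the table, so the Ctnnd1 values depend on how that overlap was counted. Of the 50-base stretches of Cyb5r4, 12.93% recur in other annotated genes. Antisense genes overlap 5.7% of the exonic bases of Cyb5r3, 4.5% of Ddr1 and 1.0% of Ddr2. The library kit kept strand, but whether the counting used it is not given in the sources used here.

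The values analysed were log2 CPM as the authors deposited them, reads brought to a common library size by their scaling between libraries. A difference of 1 on this scale is a factor of 2. Listed genes held between 13466225 and 20296087 reads per library, and each member had at least 171 reads in every library. Mitochondrial genes took 2.18% to 4.16% of the reads in Ps and 1.37% to 1.95% in CB. All 9 fibroblast markers were listed, with summed levels of 22600 to 24800 CPM in siControl Ps, 37200 to 40600 in siControl CB, 27600 to 30100 in siAPC Ps and 47400 to 52500 in siAPC CB, although Thy1 had at most 13 reads. The 3 listed epithelial markers summed to 263 to 395 CPM, nearly all from Krt14, while Epcam and Krt18 were not listed, and neither were Ptprc, Myod1 and Adipoq. In each group the values of a single library declined clearly against its replicates as gene GC content rose (siControl CB replicate 3, and replicate 2 of the other 3 groups). Their Spearman correlations with GC content were -0.546 to -0.665. Results are therefore given with and without these 4 libraries, called the GC-trend libraries, wherever that mattered. The remaining libraries ran from -0.034 (siAPC Ps replicate 1) to 0.549 (siAPC CB replicate 3), and these were kept. Each library was set against the mean of the other replicates of its group, which then includes the GC-trend library. A falling library thus makes its replicates appear to rise, and whether any of them had a trend of its own was not tested. Apc, the siRNA target, stood at 31.3% of the control level in CB (log2 change -1.67, SE 0.25, limma adjusted p = 0.000142) and at 27.9% in Ps (log2 change -1.84, SE 0.25, limma adjusted p = 3.11e-05).

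Tests of single genes were run with limma, a linear model fitted to all 13015 genes at once, and p-values were adjusted by Benjamini-Hochberg over all of them. A gene was called at an adjusted p below 0.05. The first comparison asked which members were concentrated in protrusions of control cells. Of the 9 members 7 were called higher in Ps than in CB and 2 were called lower. Over all genes 29.1% were called higher and 31.2% lower, so a call alone does not set a member apart and the size of the difference carries the information. If libraries were instead scaled to their total listed reads, the median of all genes moved to -0.30 in siControl and -0.14 in siAPC, and the calls over all genes in siControl went from 3792 higher and 4058 lower to 2005 and 6193. By the study's criterion, a fold change above 2 with an unadjusted p below 0.05, which 7.19% of all genes met as higher and 6.82% as lower, 4 members were higher and 1 was lower. The 4 were the named localized RNAs and the 1 was the paralog Ddr1.

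**Figure D1:**
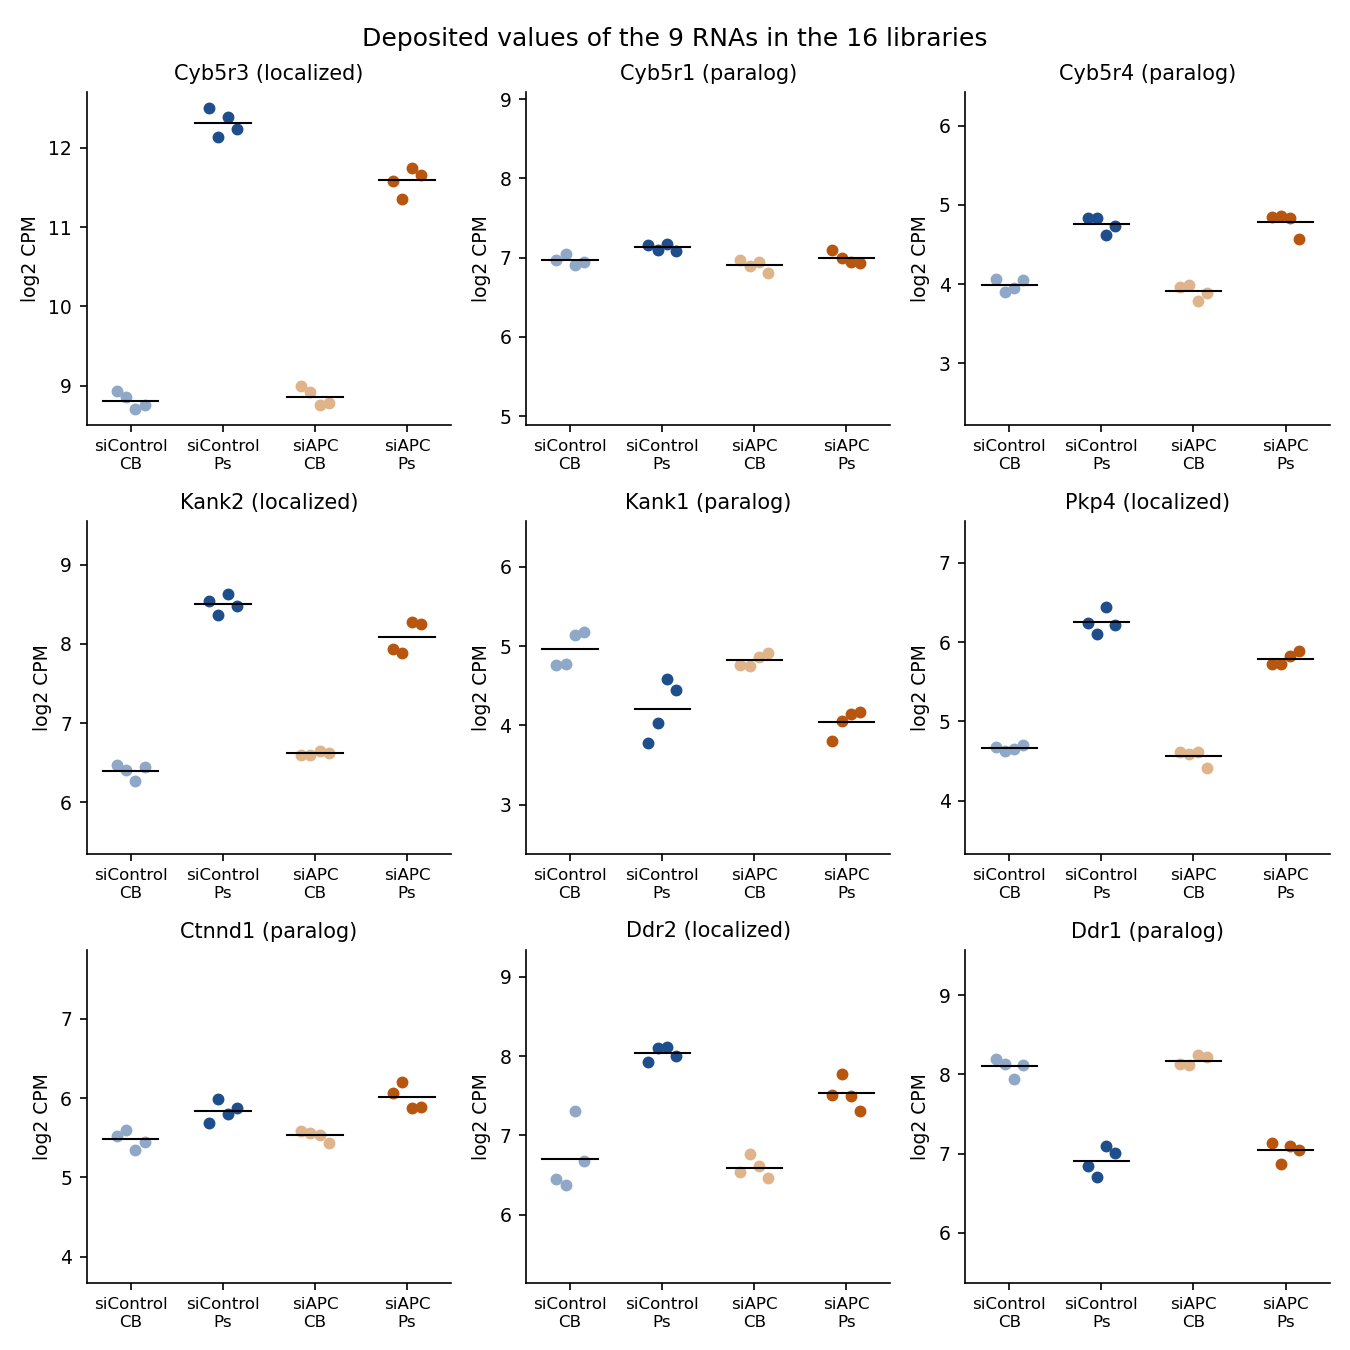
Deposited log2 CPM of each gene (vertical axis, same span of log2 units in all panels) in the 4 libraries of each group (points, replicates 1 to 4 from left to right), with the group mean as a line. In each panel of a localized RNA the Ps points lie above the CB points and the siAPC Ps points lie below the siControl Ps points.

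Cyb5r3 had the steepest protrusion gradient of the 9 RNAs and, per length, the highest level in Ps. Replicates 1 to 4 read 12.50, 12.14, 12.39 and 12.24 log2 CPM in siControl Ps and 8.93, 8.85, 8.71 and 8.75 in siControl CB. In siAPC Ps they read 11.58, 11.36, 11.75 and 11.66, and in siAPC CB 9.0, 8.92, 8.75 and 8.78. The CB libraries of both siRNAs overlapped, the siAPC Ps libraries lay well above them, and the siControl Ps libraries lay above those without overlap. In siControl, Ps exceeded CB by 3.51 log2 units (SE 0.09, limma adjusted p = 4.88e-15), an 11.4-fold difference that ranked 8th from the top of the 13015 genes. The difference was 2.95 after quantile normalization, 3.21 with libraries scaled to total listed reads and 3.9 after a loess correction for GC content and length.

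Its paralogs were far flatter. Cyb5r1 read 7.08 to 7.17 in siControl Ps and 6.91 to 7.05 in siControl CB, a difference of 0.16 (SE 0.06, limma adjusted p = 0.021). In siAPC it read 6.93 to 7.10 in Ps and 6.81 to 6.97 in CB, and the ranges overlapped. Cyb5r1 was thus nearly even between fractions, and its small difference turned to -0.14 (limma adjusted p = 0.0217) when libraries were scaled to total listed reads and lost its call without siControl CB replicate 4 (adjusted p = 0.0522) or siControl Ps replicate 3 (adjusted p = 0.0531). Cyb5r4, per length the least abundant of the 3 reductases, read 4.62 to 4.84 in siControl Ps and 3.90 to 4.06 in siControl CB, higher in Ps by 0.77 (SE 0.08, limma adjusted p = 2.18e-07). This difference was higher than that of 87.6% of all genes, so Cyb5r4 leaned toward protrusions without reaching a 2-fold change. The loess correction for GC content and length moved it to 0.51 (adjusted p = 0.000514) and Cyb5r1 to 0.37 (adjusted p = 4.97e-06).

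In the KANK family the paralogs moved in opposite directions. Kank2 read 8.54, 8.36, 8.63 and 8.48 in replicates 1 to 4 of siControl Ps and 6.47, 6.41, 6.27 and 6.45 in siControl CB. With siAPC it read 7.94, 7.89, 8.27 and 8.25 in Ps and 6.60, 6.60, 6.65 and 6.62 in CB. No groups of Kank2 overlapped, and the order from high to low was siControl Ps, siAPC Ps, siAPC CB and siControl CB. Ps exceeded CB by 2.1 in siControl (SE 0.08, limma adjusted p = 1.12e-12), or 4.29-fold, the 84th highest value of all genes.

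Kank1 was lower in protrusions. It read 3.78, 4.03, 4.58 and 4.45 in siControl Ps against 4.76, 4.77, 5.14 and 5.18 in siControl CB, and replicates 3 and 4 were high in both fractions. The difference was -0.75 (SE 0.15, limma adjusted p = 0.000188), below that of all but 13.2% of genes, and it was -0.34 (adjusted p = 0.0355) after loess on GC content and length. With siAPC, Kank1 read 3.8 to 4.17 in Ps and 4.75 to 4.91 in CB, again without overlap.

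Pkp4 and Ctnnd1 were both higher in Ps, by unequal amounts. Pkp4 read 6.24, 6.11, 6.45 and 6.22 in siControl Ps and 4.68, 4.63, 4.65 and 4.70 in siControl CB. With siAPC it read 5.73, 5.72, 5.83 and 5.89 in Ps and 4.61, 4.59, 4.62 and 4.41 in CB. Its CB levels had an SD of 0.03 in siControl and of 0.10 in siAPC, where replicate 4 was low, and the Ps libraries of the siRNAs did not overlap. In siControl, Ps exceeded CB by 1.59 (SE 0.07, limma adjusted p = 8.81e-12), a 3.01-fold difference.

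Ctnnd1 read 5.69 to 5.99 in siControl Ps and 5.34 to 5.60 in siControl CB, a difference of 0.37 (SE 0.08, limma adjusted p = 0.000869) that shrank to 0.07 (limma adjusted p = 0.543) with libraries scaled to total listed reads. In siAPC it read 5.88 to 6.20 in Ps and 5.43 to 5.59 in CB. The overlap with Gm28635 applies to all of these values.

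The collagen receptors also differed in direction. Ddr2 read 7.93, 8.10, 8.11 and 8.0 in siControl Ps and 6.45, 6.37, 7.31 and 6.68 in siControl CB. With siAPC it read 7.51, 7.78, 7.50 and 7.31 in Ps and 6.54, 6.76, 6.62 and 6.46 in CB. Replicate 3 of siControl CB, the library named above for its GC trend, held 3675 Ddr2 reads against 1409 to 1901 in its replicates. Ps exceeded CB by 1.33 in siControl (SE 0.14, limma adjusted p = 2.05e-07), or 2.52-fold, and by 1.53 (limma adjusted p = 4.45e-10) without that library. Ddr1 read 6.70 to 7.10 in siControl Ps and 7.94 to 8.19 in siControl CB, a difference of -1.18 (SE 0.08, limma adjusted p = 5.74e-10), and 4.2% of all genes had a lower value. After loess on GC content and length the difference of Ddr1 was -0.59 (adjusted p = 4.54e-10) in siControl and -0.50 (adjusted p = 6.71e-09) in siAPC, less than a 2-fold change.

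In siAPC cells the same comparison gave 6 members called higher in Ps and 2 called lower, where 29.8% and 30.9% of all genes were called. Cyb5r1 was the member no longer called (0.08, limma adjusted p = 0.214), though it was called after quantile normalization (0.17, adjusted p = 0.00696) and after loess on GC content and length (0.32, adjusted p = 4.3e-05). The localized RNAs remained higher in Ps, at 2.73 for Cyb5r3, 1.47 for Kank2, 1.23 for Pkp4 and 0.93 for Ddr2. The paralogs stood at 0.87 for Cyb5r4, 0.48 for Ctnnd1, -0.78 for Kank1 and -1.14 for Ddr1. After loess on GC content and length Cyb5r4 stood at 0.47 (adjusted p = 0.00129) and Kank1 at -0.34 (adjusted p = 0.039). By the 2-fold criterion, met by 7.67% of genes as higher and 5.05% as lower, 3 members were higher and 1 was lower, because Ddr2 fell just under it. Both siRNA comparisons have their own CB libraries and share none.

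**Figure D2:**
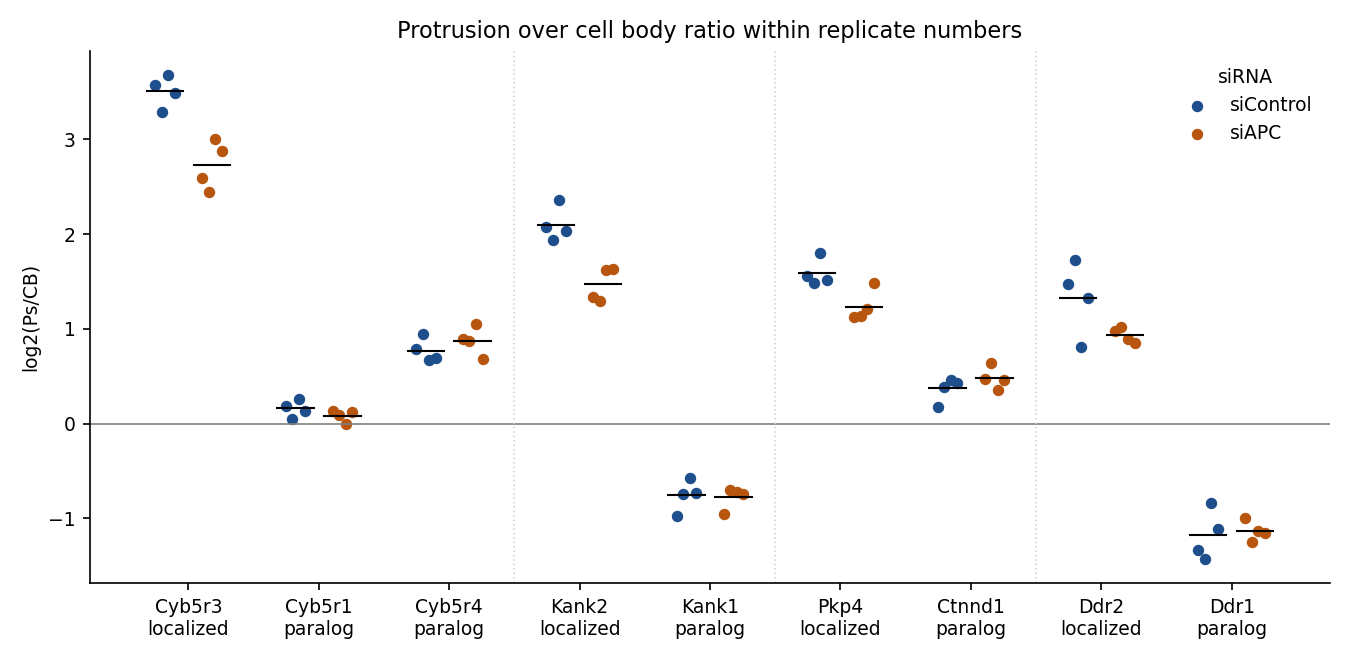
log2(Ps/CB) of each RNA formed within replicate numbers (vertical axis; points from left to right are replicates 1 to 4, lines are means), for siControl and siAPC, with families separated by dotted lines. The localized RNA is the highest of its family in both siRNAs, and its siAPC mean is below its siControl mean, while the means of the paralogs lie close together.

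Each localized RNA was next set against its paralog within the same library, since such a difference does not depend on the scaling factor of a library. The lengths of the genes also cancel when fractions are compared. Quantile normalization and loess shift genes by unequal amounts, so the sizes can still move with them. The 4 Ps values were set against the 4 CB values in an exact permutation test (two-sided, with 0.0286 as the smallest p it can give), in 15 comparisons over 5 pairs. In siControl the Ps and CB values did not overlap in any of the 5 pairs, and p was 0.0286 for each. In siAPC they did not overlap in any pair either, with the same p. Among single genes tested by limma, 29.1% were called higher and 31.2% lower in siControl, and 29.8% and 30.9% in siAPC. Many pairs of unrelated genes would therefore differ too. How often the Ps and CB values of other pairs do not overlap was not computed, so these counts do not set the 5 pairs apart. The sizes are given for that reason.

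Log2 of Cyb5r3 over Cyb5r1 was 1.95, 1.80, 1.79 and 1.81 in siControl CB and 5.34, 5.05, 5.21 and 5.16 in siControl Ps, a rise of 3.35 or 10.2-fold. Against Cyb5r4 the rise was 2.74, or 6.67-fold. Kank2 over Kank1 rose by 2.85 (7.23-fold), Ddr2 over Ddr1 by 2.51 (5.71-fold) and Pkp4 over Ctnnd1 by 1.23 (2.34-fold). With siAPC the rises were 2.65, 1.86, 2.25, 2.07 and 0.75 for the pairs in the same order, each smaller than in siControl. For Ddr2 over Ddr1 the siControl CB values were -1.74, -1.76, -0.63 and -1.44, with replicate 3 standing above the rest, and without that library the rise was 2.77. After quantile normalization the siControl rises were smaller, mainly those of Cyb5r3, with Ps minus CB at 2.95 for Cyb5r3, 0.19 for Cyb5r1 and 0.82 for Cyb5r4. After loess on GC content and length the siControl rise of Ddr2 over Ddr1 was smaller (Ps minus CB 1.34 and -0.59). Those of the other pairs were larger after loess.

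**Figure D3:**
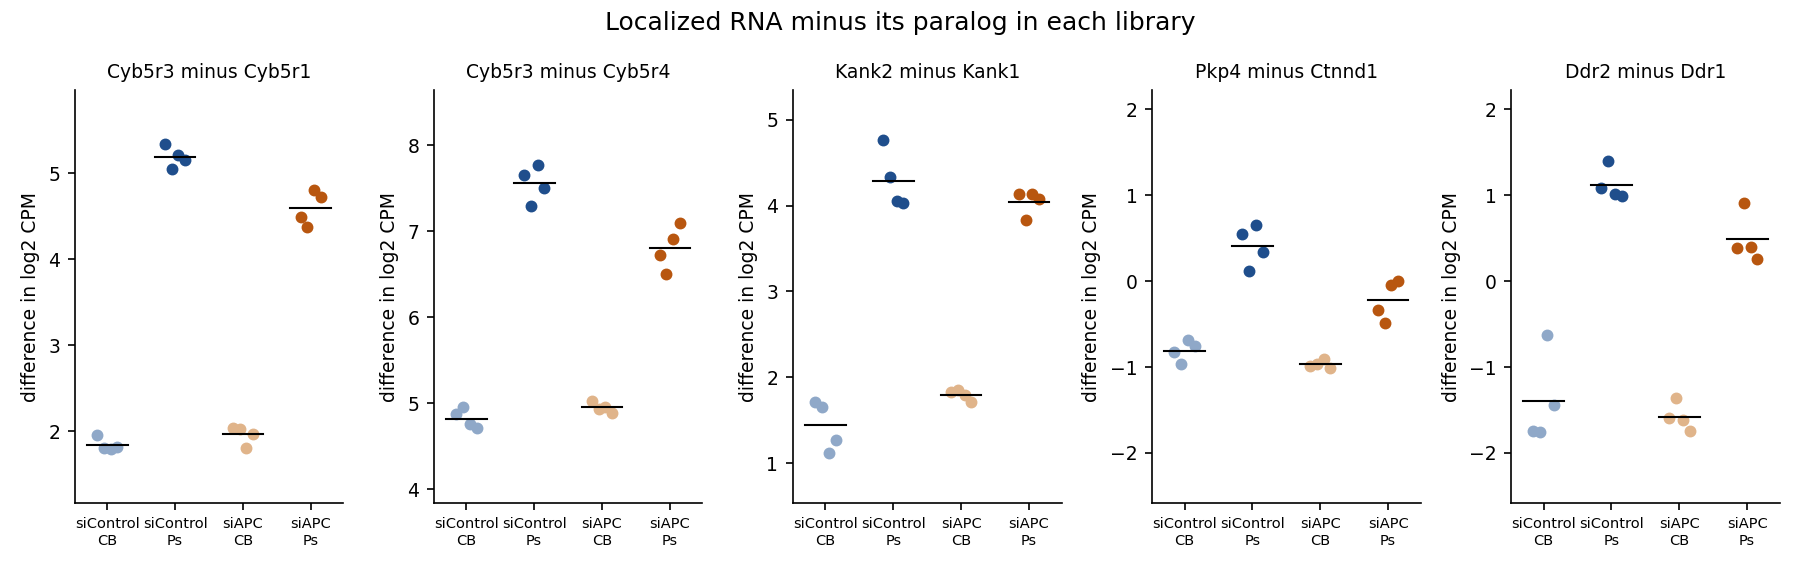
Localized RNA minus paralog in log2 CPM (vertical axis, same span in all panels) for each library of the 4 groups, with the group mean as a line. In all 5 pairs the Ps libraries lie above the CB libraries of the same siRNA, and for Ddr2 minus Ddr1 replicate 3 of siControl CB (-0.63) stands above its replicates.

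Levels of different genes were compared only per length, as CPM per kilobase of exon, since a longer RNA yields more reads. On this scale Cyb5r3 stood at 105 ± 7.2 (SD, n = 4) in siControl CB and 1190 ± 130 (SD, n = 4) in siControl Ps. Cyb5r1 stood at 28.3 ± 1.16 and 31.5 ± 1.00, and Cyb5r4 at 2.36 ± 0.122 and 4.02 ± 0.291. Cyb5r3 thus made up 77.3% ± 0.887 (SD, n = 4) of the 3 reductase RNAs in siControl CB and 97.1% ± 0.248 (SD, n = 4) in siControl Ps. In siAPC its share was 78.7% ± 1.17 in CB and 95.6% ± 0.61 in Ps (SD, n = 4). With the length of a single transcript in place of all exons, the share was 70.3% in siControl CB and 95.9% in siControl Ps. In siAPC it was then 72.0% in CB and 93.8% in Ps. The SD covers the libraries only and not this choice of length.

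Kank2 held 76.0% ± 3.6 of the Kank2 and Kank1 RNA in siControl CB and 95.8% ± 0.888 in siControl Ps (SD, n = 4), and 80.4% ± 0.677 and 95.1% ± 0.484 in siAPC. Pkp4 held a larger share in Ps than in CB, with 42.2% ± 2.07 of the Pkp4 and Ctnnd1 RNA in siControl CB and 63.0% ± 3.84 in siControl Ps (SD, n = 4). In siAPC the share of Pkp4 was 39.5% ± 0.71 in CB and 52.4% ± 4.01 in Ps, with single Ps libraries between 47.8% and 56.2%. Since the counting of reads in the overlap of Ctnnd1 with Gm28635 is unknown, which of Pkp4 and Ctnnd1 was the major RNA was not resolved. Ddr2 was far below Ddr1 in CB, at 16.9% ± 5.55 in siControl and 14.7% ± 1.44 in siAPC (SD, n = 4). In Ps it reached 52.9% ± 3.3 in siControl and 42.0% ± 4.88 in siAPC. The siControl Ps share of Ddr2 was 49.5% when the length of a single transcript replaced that of all exons, so which of Ddr2 and Ddr1 was the major RNA there was not resolved.

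**Figure D4:**
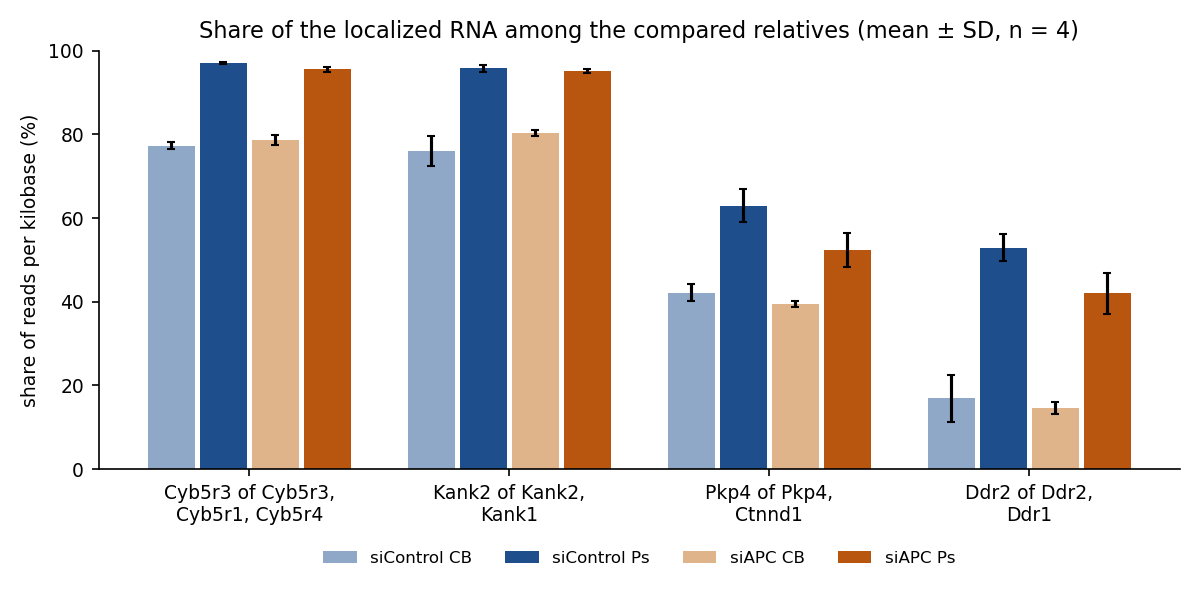
Share of the localized RNA in the summed reads per kilobase of exon of the relatives named under each group of bars (vertical axis in %, from 0; bars are means and error bars SD over 4 libraries). Every localized RNA takes a larger share in Ps than in CB, up to 97.1% for Cyb5r3 in siControl Ps.

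The central question of the design was whether the protrusion enrichment changed when Apc was lowered. For each gene the Ps/CB log2 difference in siAPC minus that in siControl was tested as an interaction in limma. Of the 9 members 1 was called lower, Cyb5r3, and 0 were called higher, with 0.0231% (3 of 13015 genes) called lower and 0.0% called higher overall. At an unadjusted p below 0.05, 3 members were lower (Cyb5r3, Kank2 and Pkp4) and 0 were higher, against 223 lower and 269 higher of all genes. A decrease with an unadjusted p below 0.1, which the study applied to RNAs already enriched in Ps, was met by all 4 localized RNAs, as their selection by the study implies, and by 0 of 5 paralogs. Without the condition on enrichment 3.85% of all genes met it as lower and 4.5% as higher.

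The change of Cyb5r3 was -0.78 (SE 0.13, limma adjusted p = 0.0433), so that its Ps/CB ratio was 58.3% of the control ratio. Within replicate numbers its Ps minus CB difference was 3.57, 3.29, 3.68 and 3.49 in siControl and 2.59, 2.44, 3.0 and 2.88 in siAPC, without overlap. The size of the change held between -0.84 and -0.70 when any library was left out, but the call did not. The adjusted p passed 0.05 on leaving out any of 13 libraries, with values up to 0.178, and was retained only without siControl CB replicate 1, siControl Ps replicate 2 or siAPC Ps replicate 3. With the 4 GC-trend libraries left out the change of Cyb5r3 was -0.71 (limma adjusted p = 0.111). It was -0.49 (adjusted p = 0.144) after quantile normalization, -0.64 (adjusted p = 0.105) with scaling to total listed reads and -0.78 (adjusted p = 0.107) with a block for the replicate number. The call was kept after loess on GC content and length (-0.75, adjusted p = 0.00347), with library weights (-0.65, adjusted p = 0.0208), with voom weights (adjusted p = 0.0441) and with 2 reads added (adjusted p = 0.0446).

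Kank2 changed by -0.63 (SE 0.12, limma adjusted p = 0.0835), to 64.5% of the control ratio. Its siControl differences were 2.07, 1.94, 2.36 and 2.03 and its siAPC differences 1.34, 1.29, 1.62 and 1.63, without overlap. It was called on leaving out siAPC Ps replicate 3 (-0.69, adjusted p = 0.0296) or siControl Ps replicate 2 (-0.68, adjusted p = 0.0407), after quantile normalization (-0.56, adjusted p = 0.0145), after loess on GC content and length (-0.58, adjusted p = 0.00201) and with library weights (-0.54, adjusted p = 0.0208). For Pkp4 the change was -0.36 (95% interval -0.58 to -0.14, limma adjusted p = 0.949), with siControl differences of 1.56, 1.48, 1.80 and 1.52 against 1.12, 1.13, 1.21 and 1.48 in siAPC. The groups of Pkp4 did not overlap either, though the highest siAPC value, that of replicate 4, and the lowest of siControl both rounded to 1.48. Over all genes the 4 siAPC differences lay below the 4 siControl differences without overlap in 1.58% and above them in 1.96%. For Ddr2 it was -0.40 (95% interval -0.83 to 0.03, limma adjusted p = 0.981), and -0.60 (adjusted p = 0.284) without siControl CB replicate 3. With scaling to total listed reads the change was -0.26 (adjusted p = 0.683) for Ddr2 and -0.22 (adjusted p = 0.49) for Pkp4. The siControl differences of Ddr2 were 1.47, 1.73, 0.81 and 1.32, and those of siAPC lay between 0.85 and 1.02, inside the siControl range.

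None of the 5 paralogs was called. Their changes were -0.07 for Cyb5r1 (95% interval -0.24 to 0.09), 0.10 for Cyb5r4 (-0.15 to 0.35), -0.03 for Kank1 (-0.46 to 0.41), 0.12 for Ctnnd1 (-0.13 to 0.36) and 0.04 for Ddr1 (-0.20 to 0.28), with limma adjusted p between 0.981 and 0.996. The intervals of Cyb5r1, Cyb5r4, Ctnnd1 and Ddr1 do not reach a loss as large as the estimates of their localized relatives. The interval of Kank1 is wider and stops short of the -0.63 of Kank2. The estimates of the localized RNAs carry errors of their own, however. The interval of Kank2 (-0.88 to -0.39) overlapped that of Kank1, and that of Ddr2 (-0.83 to 0.03) overlapped that of Ddr1. Intervals of the remaining pairs did not overlap, for Pkp4 and Ctnnd1 by a narrow margin (-0.14 against -0.13).

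The difference between relatives was tested directly from the within-library pair values, as 4 siAPC against 4 siControl values of Ps minus CB formed within equal replicate numbers. The mean difference does not depend on which libraries are matched, whereas the 4 single values and the p do, and in siControl equal numbers were not shown to belong together. The ratio of Cyb5r3 to Cyb5r1 gained less in protrusions of siAPC cells by 0.70 log2 units (difference -0.70; siControl 3.38, 3.25, 3.42 and 3.35; siAPC 2.46, 2.35, 3.01 and 2.76; exact permutation p = 0.0286). For Cyb5r3 with Cyb5r4 the difference was -0.88, for Kank2 with Kank1 -0.61 and for Pkp4 with Ctnnd1 -0.47, each with an exact permutation p of 0.0286, the smallest possible, which is reached whenever the 4 values of one siRNA all lie on one side of the other 4. How often other pairs of genes reach it was not computed. For Ddr2 with Ddr1 it was -0.44 with overlapping values (exact permutation p = 0.229). The siControl values of that pair were 2.82, 3.16, 1.65 and 2.43, and leaving out replicate 3, the number of the GC-trend CB library, gave -0.73 (exact permutation p = 0.0286). The p of the first, second and Pkp4 pairs rose to 0.0571 when single libraries were left out, for Cyb5r3 with Cyb5r1 and Pkp4 with Ctnnd1 without siControl CB replicate 1, for example, and that of Kank2 with Kank1 did not pass 0.05 in any such test. The values of these pairs stayed fully apart, since leaving a value out cannot make separate groups overlap. The rise arose with the unequal group sizes and does not measure a loss of separation. These p-values are not adjusted over the 15 comparisons.

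**Figure D5:**
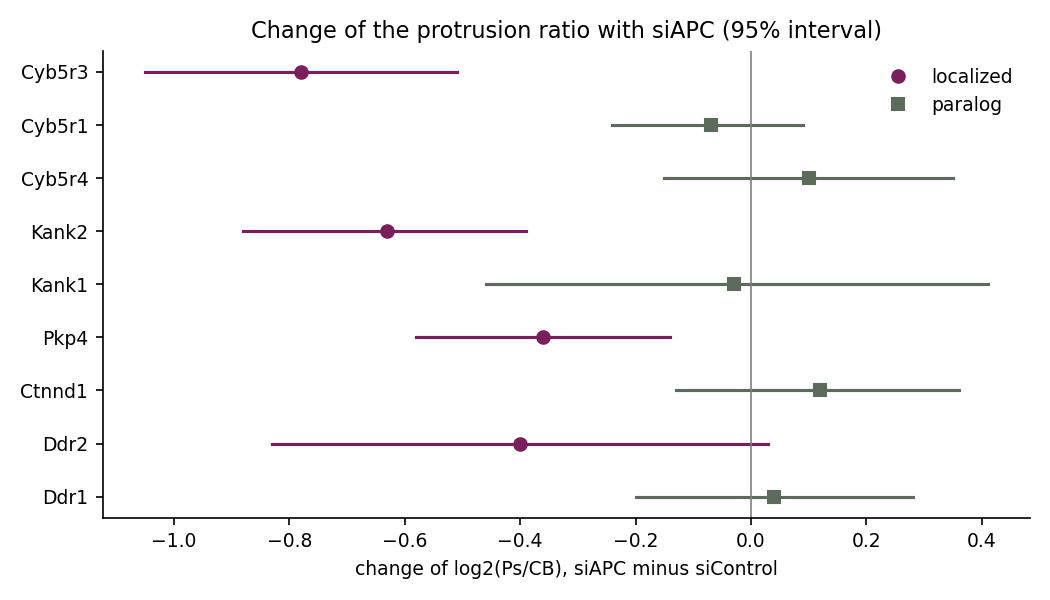
Change of log2(Ps/CB) with siAPC for each RNA (horizontal axis, siAPC minus siControl), as the limma estimate (circles localized, squares paralogs) with its 95% interval. Estimates of localized RNAs run from -0.78 to -0.36 and those of paralogs from -0.07 to 0.12, and the interval of Ddr2 includes 0.

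The level of each RNA within a fraction showed where the ratio had moved. In Ps the 4 localized RNAs were called lower with siAPC and 0 members were called higher, where 11.2% of all genes were called lower and 10.7% higher. Cyb5r3 changed by -0.73 (SE 0.09, limma adjusted p = 1.16e-05) to 60.4% of control, Pkp4 by -0.46 (SE 0.07, adjusted p = 0.000139), Kank2 by -0.42 (SE 0.08, adjusted p = 0.00111) and Ddr2 by -0.51 (SE 0.14, adjusted p = 0.0163). None of the 5 paralogs was called by limma (1 at an unadjusted p below 0.05, Cyb5r1 at -0.14 with adjusted p = 0.0812). Cyb5r1 was called lower with library weights (-0.14, adjusted p = 0.0449), after loess on GC content and length (-0.15, adjusted p = 0.0394) and without siAPC Ps replicate 1 (-0.18, adjusted p = 0.0423), and Kank1 with library weights (-0.32, adjusted p = 0.0496). All 4 siAPC Ps libraries lay below all 4 siControl Ps libraries in each localized RNA, as they did in 11.6% of all genes, and they lay above in 10.9% of all genes. The sizes depended on the scaling, with Cyb5r3 at -0.44 after quantile normalization, and Kank2 at -0.25 and Pkp4 at -0.30 with scaling to total listed reads. Ddr2 lost its call without siAPC Ps replicate 4 (-0.44, adjusted p = 0.0569), after quantile normalization (-0.42, adjusted p = 0.0855) and with scaling to total listed reads (-0.34, adjusted p = 0.159). With that last scaling the paralogs Ddr1 (0.29, adjusted p = 0.0109) and Ctnnd1 (0.33, adjusted p = 0.0119) were called higher, where the median of all genes moved to 0.14.

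In CB no member was called in either direction by limma, where 7.52% of all genes were called higher and 5.87% lower. The only member with an unadjusted p below 0.05 was Kank2, at 0.22 (SE 0.08, adjusted p = 0.0926), and its siAPC CB libraries lay just above its siControl CB libraries. Kank2 was called under 4 of the alternatives, for example at 0.24 (adjusted p = 0.048) with scaling to total listed reads. Cyb5r3 was at 0.05 (95% interval -0.14 to 0.24), Pkp4 at -0.11 (-0.26 to 0.05) and Ddr2 at -0.11 (-0.41 to 0.19). The siAPC CB libraries of Pkp4 (4.41 to 4.62) lay just below its siControl CB libraries (4.63 to 4.70), the opposite direction to Kank2. The comparisons of Ps and of CB between siRNAs, and the interaction, use the same libraries and are not independent of each other.

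The wider pathways of the 4 families were described from lists chosen with earlier results known, by counts beside the medians of all genes. Among 17 genes of cytochrome b5 electron transfer, 14 were listed, and in siControl 3 were called higher in Ps, 4 lower and 7 neither, where 29.1% of all genes were called higher and 31.2% lower, with a median of -0.13 against 0.00 for all genes. The highest was Scd1, the stearoyl-CoA desaturase that draws electrons from cytochrome b5, at 1.81 (SE 0.07, limma adjusted p = 1.26e-12). The lowest was Por, the cytochrome P450 reductase, at -1.19 (SE 0.08, adjusted p = 5.08e-10). Cyb5a and Cyb5b, the cytochromes b5 themselves, were at 0.60 and 0.30, both called, and the reductase relative Cyb5rl was at 0.16 (adjusted p = 0.181), while Cyb5r2 was not listed. With siAPC the Ps/CB difference of Scd1 changed by -0.64 (SE 0.10, limma adjusted p = 0.0433), and it was the only gene of these 4 lists called in the interaction. That call was lost with scaling to total listed reads (-0.50, adjusted p = 0.11), without the 4 GC-trend libraries (-0.56, adjusted p = 0.213) and on leaving out any of 12 of the 16 libraries (adjusted p up to 0.178).

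Of 14 KANK relatives and partners at the cell cortex 12 were listed, 4 called higher in Ps of siControl, 4 lower and 4 neither (median -0.01), beside the same 29.1% and 31.2% of all genes. Ppfia1, which encodes liprin-alpha-1 of the cortical complexes, was highest at 1.43 (SE 0.12, limma adjusted p = 6.25e-09). Tln1, the talin that KANK proteins bind, was lowest at -0.60 (SE 0.10, adjusted p = 3.65e-05). Kank3 was at -0.43 (SE 0.09, adjusted p = 0.000298), below 0 as Kank1 was, and Kank4 was not listed.

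Of 20 genes of the p120-catenin family and cadherin adhesion only 10 were listed. In siControl 0 were called higher in Ps by limma (0 also at an unadjusted p below 0.05), 3 lower and 7 neither (median 0.05), against 29.1% higher and 31.2% lower of all genes. The p120-catenin relative Arvcf was at -0.67 (SE 0.14, adjusted p = 0.000484). The plakophilins Pkp1, Pkp2 and Pkp3 were at -0.15, 0.19 and 0.14 with adjusted p of 0.206, 0.191 and 0.738, and none of these was called. Cdh2, N-cadherin, was lowest at -0.93 (SE 0.12, adjusted p = 1.44e-06) and Zbtb33, the p120-catenin partner Kaiso, was highest at 0.31 (SE 0.17, adjusted p = 0.127).

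Of 16 collagens and signalling partners of the discoidin domain receptors 14 were listed, 2 called higher in Ps of siControl, 10 lower and 2 neither, where 29.1% of all genes were called higher and 31.2% lower. The median was -0.84, against 0.00 for all genes. The collagen ligands Col1a1, Col1a2, Col3a1, Col5a1 and Col5a2 were all called lower in Ps, as Ddr1 was, with values between -1.33 (Col1a1) and -1.46 (Col1a2, SE 0.09, limma adjusted p = 2.52e-10). Nck1, an adaptor protein of receptor tyrosine kinase signalling, was highest at 0.68 (SE 0.19, adjusted p = 0.00492).

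The genes most like each localized RNA were sought among 9582 other genes by the Pearson correlation of log2 values over the 16 libraries. All 16 points share the split between fractions, so high values are common among RNAs that differ between Ps and CB, and they are given as a description. For Cyb5r3 these were Kctd10 (0.993), Cenpb (0.993) and Rab13 (0.992), and for Kank2 Cplx2 (0.996), Kctd10 (0.995) and Kif1c (0.995). For Pkp4 they were Dync1li2 (0.990), Net1 (0.989) and Cenpb (0.988), and for Ddr2 Snx2 (0.982), Trim44 (0.980) and Wnk1 (0.980). Cyb5r3, Kank2 and Pkp4 also correlated with each other at 0.98 to 0.99, and Ddr2 with them at 0.89 to 0.93. Against their own paralogs the values were 0.69 (Cyb5r1) and 0.95 (Cyb5r4) for Cyb5r3, -0.82 for Kank2 with Kank1, 0.76 for Pkp4 with Ctnnd1 and -0.93 for Ddr2 with Ddr1. With siAPC the values of Cyb5r3 and Cyb5r4 in Ps parted, at -0.73 and 0.02 relative to siControl Ps.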

How the data were processed

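RNA of 16 libraries was measured by stranded total RNA sequencing. According to the submitters' notes and the study's methods, the authors aligned reads to mm10 (STAR 2.4.2a), assigned them to genes (Rsubread) and applied the voom normalization of limma 3.26.1. The deposited values are log2 CPM with 0.5 reads added, for 13015 genes, without voom weights. Inverting the formula gave whole reads (tolerance 0.01) for 100% of 208240 values. These supplied depths and reads per kilobase.

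Groups came from the labels. limma 3.58.1 (R 4.3.3, lmFit and eBayes with an intensity trend, unweighted) fitted all 16 libraries with 4 group means and no block, and it was tested on simulated data. Fold changes are on the log2 scale with 0.5 reads added. The members and lists were chosen with earlier results of these data known. Genes named are the members, Apc, the listed relatives, the highest and lowest gene of each list (mean log2 CPM no lower than 1), and the 3 best correlated genes with a standard name. Alternatives were total-read scaling, quantile normalization, 2 reads added, voom weights, library weights, a minimum mean log2 CPM of 1, loess on GC content and length, the study's criteria, a replicate block, and leaving out libraries. Equal replicate numbers deviated together, every correlation above 0.1, between siAPC CB and Ps (0.416 to 0.617) and between Ps of both siRNAs (0.162 to 0.551), but not between siControl CB and Ps (-0.121 to 0.432) or CB of both siRNAs (-0.336 to 0.269). The changes of gene pairs used the numbers to form Ps minus CB. Transcript length in place of exon length was added after seeing the data. GENCODE M21 matched 12874 genes (98.9%), and the authors used another release. A sequence window of Cyb5r3 and Cyb5r1 is not reported here.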

Additional observations from a re-analysis of the deposited data

Results flagged for a closer look

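Within groups of 4, 2 of 36 combinations of member and group held a library far from its replicates (gap over range above Dixon's 95% critical value, which chance alone passes in about 1 in 20 groups). Cyb5r4 read 4.57 log2 CPM in siAPC Ps replicate 4, below 4.84 to 4.86 in the other 3 libraries. Pkp4 read 4.41 in siAPC CB replicate 4, below 4.59 to 4.62 in the others.

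The protrusion ratio differed between the siRNAs for Cyb5r3 (change of log2(Ps/CB) -0.78, limma adjusted p = 0.0433, every siAPC value of Ps minus CB below every siControl value). That call was lost on leaving out any of 13 of the 16 libraries (limma adjusted p up to 0.178). It was also lost with total-read scaling, quantile normalization, the replicate block and without the 4 GC-trend libraries. Over all genes 1.58% had their siAPC values below their siControl values without overlap. The gain of the localized RNA over its paralog in Ps also differed, by -0.70 for Cyb5r3 with Cyb5r1, -0.88 for Cyb5r3 with Cyb5r4, -0.61 for Kank2 with Kank1 and -0.47 for Pkp4 with Ctnnd1, each with an exact permutation p of 0.0286, the smallest possible. For Ddr2 with Ddr1 the difference was -0.44 with overlapping values (exact permutation p = 0.229). The p of both Cyb5r3 pairs and of Pkp4 with Ctnnd1 rose to 0.0571 when certain single libraries were left out, with unequal group sizes and values still fully apart. These p-values are not adjusted over the 15 comparisons. How often other pairs of genes reach 0.0286 was not computed.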

How the results depend on the processing

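Under the study's criteria the members called were 4 higher and 1 lower in Ps of siControl, 3 higher and 1 lower in Ps of siAPC, 4 lower for the change with siAPC, and 0 lower for siAPC against siControl in Ps. Over all 13015 genes, without the condition on enrichment, these were 936 higher and 888 lower, 998 higher and 657 lower, 501 lower, and 105 lower. Members with a lower change numbered 0 under scaling to total listed reads, without the 4 GC-trend libraries and with the replicate block, 2 under library weights and loess, and 0 to 2 when single libraries were left out. Over all genes 0, 0 and 1 were called lower in the first 3 of these settings. Library weights gave 10, loess gave 11, and leaving out a single library gave at most 7. In CB 1 member (Kank2) was called higher with siAPC under total reads, quantile normalization, library weights and loess, and in Ps 2 members (Ctnnd1 and Ddr1) were under total reads and 1 (Ddr1) under loess. All genes called higher in CB were then 1094, 1097, 1481 and 1321, against 979 in the main fit. In Ps they were 2943 under total reads and 1791 under loess, against 1393. Members called lower in Ps with siAPC numbered 6 under library weights (Cyb5r1 and Kank1 added) and 5 under loess (Cyb5r1 added). Calls over all genes rose as well, from 1464 of 13015 in the main fit to 2209 of 13015 and 1957 of 12874. Members called lower there numbered 3 under total reads and under quantile normalization (Ddr2 lost), where 550 and 1411 of all genes were called lower. The cause of these shifts was not tested.

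Signs turned in small values. With total reads Cyb5r1 stood at -0.14 (siControl), -0.07 (siAPC), 0.07 (change) and 0.02 (siAPC in Ps), and the change of Kank1 at 0.12. With loess the change of Cyb5r4 was -0.04 and that of Kank1 0.0, and siAPC in CB gave 0.05 for Cyb5r4. Without the GC-trend libraries siAPC in CB gave 0.0 for Cyb5r3, 0.0 for Ctnnd1 and 0.04 for Ddr2, which library weights put at 0.07. Leaving out single libraries gave a change of -0.17 to 0.10 for Kank1 and -0.03 to 0.10 for Ddr1, -0.22 to 0.09 for Ddr2 in CB and -0.03 to 0.09 for Cyb5r4 in Ps.

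Pair differences kept their direction in every alternative run. Without the GC-trend libraries they were (3 against 3 libraries, and 2 siControl against 3 siAPC values for the change, since it needs both fractions of a replicate number; no exact p can go below 0.1) 3.38, 2.74 and -0.62 for Cyb5r3 with Cyb5r1 (siControl, siAPC, change), 2.80, 1.95 and -0.84 with Cyb5r4, 2.74, 2.34 and -0.57 for Kank2, 1.37, 0.84 and -0.40 for Pkp4, and 2.67 and 2.01 for Ddr2. The replicate block left the values at 3.35, 2.65 and -0.70, 2.74, 1.86 and -0.88, 2.85, 2.25 and -0.61, 1.23, 0.75 and -0.47, and 2.51 and 2.07, with 0.125 the smallest p for 4 exact pairs. Quantile normalization gave a change of -0.47 for Cyb5r3 with Cyb5r1 (exact permutation p = 0.0571), and loess gave -0.57 for Ddr2 with Ddr1 (exact permutation p = 0.0286). Leaving out single libraries gave changes of -0.83 to -0.61, -1.01 to -0.79, -0.56 to -0.38 (Pkp4) and -0.73 to -0.23 (Ddr2).

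With the replicate block the change of Cyb5r3 was the single member call that differed. Outside leave-one-out fits, 371 of 405 member values kept direction and side of the threshold and 60 of 90 pair values did. The pair tally includes the settings without the GC-trend libraries and with the replicate block. There no exact p can go below 0.05, so the lost side of the threshold was fixed by the design and says nothing about stability. Among leave-one-out fits 689 of 720 member values did, with 13 of the 16 lost calls being the change of Cyb5r3, and 136 of 160 pair values did.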
